A study of Mus musculus with 11 samples.

Results

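The genes described here are the 4 receptors of the epidermal growth factor (EGF) receptor family, Egfr, Erbb2, Erbb3 and Erbb4, and 6 genes for their ligands, Egf, Tgfa, Hbegf, Areg, Btc and Nrg1. They were taken by symbol, 10 of the 24411 gene symbols counted in every library. The study, which by its title asks how the corpus callosum and the subventricular zone (SVZ) communicate through their local circadian clocks during demyelination, sequenced RNA from both places in mice. The 11 libraries form 4 groups: callosum labelled Bmal1-/- (n = 2), wild-type callosum (n = 3), neurospheres labelled Bmal1-/- (n = 3) and wild-type neurospheres (n = 3). All mice were 8 to 10 weeks old. The callosum was dissected and its RNA taken directly. The neurospheres, balls of dividing stem and progenitor cells in suspension, were grown for 1 week from mechanically dissociated SVZ cells. The medium held EGF at 20 ng/ml and heparin at 2 ug/ml. Both neurosphere groups were thus exposed to an added ligand of Egfr, while the callosum had whatever ligands the tissue itself held. The labels name no demyelinating treatment for any library, and neither the making of the Bmal1 allele nor the animal or culture behind each library is stated. So the p-values speak of variation among libraries, part or all of which could be technical.

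The receptors of this family sit in the cell membrane and signal in pairs. EGF, TGF-alpha and amphiregulin bind EGFR, HB-EGF and betacellulin bind EGFR and ERBB4, and neuregulin 1 binds ERBB3 and ERBB4. ERBB2 binds no known ligand and acts as a partner, and ERBB3 has very weak kinase activity of its own, so it also depends on a partner. Most ligands are made as membrane-bound precursors that proteases of the ADAM family cut free. In the SVZ, EGFR marks activated stem cells and transit-amplifying progenitors, and EGF in the medium keeps neurospheres dividing. In white matter, neuregulin and the ERBB3 and ERBB4 receptors are known for their part in the oligodendrocyte lineage.

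Promoter sequence is shown for 3 of these genes, since the genotype label concerns a transcription factor, BMAL1, that binds E-boxes, and since the levels of these 3 lay far apart: Egfr led in neurospheres, Tgfa led in callosum and Areg was at or near 0 in callosum. Each window runs from 250 bases before to 50 bases after the annotated start, 5′ to 3′ on the strand of the gene, from RefSeq on GRCm38.p6, the assembly of mm10. The Egfr window lies on chromosome 11 at 16751953 to 16752252 (+ strand), the Tgfa window on chromosome 6 at 86194972 to 86195271 (+ strand) and the Areg window on chromosome 5 at 91139349 to 91139648 (+ strand). Capitals mark a GC box or a TATA box.
Egfr promoter: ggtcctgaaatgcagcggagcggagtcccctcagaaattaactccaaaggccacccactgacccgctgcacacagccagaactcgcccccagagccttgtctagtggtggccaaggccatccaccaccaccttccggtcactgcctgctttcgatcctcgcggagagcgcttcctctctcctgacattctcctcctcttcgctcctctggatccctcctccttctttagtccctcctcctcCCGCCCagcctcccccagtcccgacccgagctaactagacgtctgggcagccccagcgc
Tgfa promoter: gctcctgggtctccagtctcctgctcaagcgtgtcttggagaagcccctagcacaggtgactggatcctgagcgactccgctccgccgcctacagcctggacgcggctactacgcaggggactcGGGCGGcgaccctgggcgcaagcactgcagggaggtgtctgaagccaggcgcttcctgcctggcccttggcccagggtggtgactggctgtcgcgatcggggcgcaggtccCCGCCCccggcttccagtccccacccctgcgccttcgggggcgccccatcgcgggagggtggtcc
Areg promoter: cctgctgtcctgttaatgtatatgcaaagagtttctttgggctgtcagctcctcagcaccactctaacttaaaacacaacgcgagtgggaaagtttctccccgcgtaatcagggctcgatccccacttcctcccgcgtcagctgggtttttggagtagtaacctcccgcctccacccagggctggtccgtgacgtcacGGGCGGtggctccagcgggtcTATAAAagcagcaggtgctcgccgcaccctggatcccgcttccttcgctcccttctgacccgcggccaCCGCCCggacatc

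Of the 10 genes, 7 had a RefSeq window that was examined, 8 windows in all since Egf had 2 starts. No window held the E-box CACGTG, which 7.15% of all 32851 windows held. None held the AP-1 letters TGANTCA, which 7.81% of all windows held. The GC box GGGCGG, held by 35.7% of windows, occurred in 1 place in the Egfr window and in 2 places each in the Tgfa and Areg windows. The TATA letters TATAAA, held by 13.6% of windows, occurred in the Areg window only, 31 bases before the start. Both strands were searched, and no matches in the printed windows overlap each other. A match is a description of the letters, and no match says only that these letters are not in this window.

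The sum of gene counts ran from 17450270 to 19717848 per library. All 10 oligodendrocyte markers were detected in every callosum library and summed to 24800 to 34700 CPM in callosum labelled Bmal1-/- and 22400 to 33700 CPM in wild-type callosum. All 10 neural progenitor markers were detected in every neurosphere library and summed to 4260 to 6620 CPM in neurospheres labelled Bmal1-/- and 3240 to 4300 CPM in wild-type neurospheres. Both lists were also detected in full in the other source. Oligodendrocyte markers summed to 1510 to 2560 CPM in neurospheres labelled Bmal1-/- and 2010 to 2120 CPM in wild-type neurospheres. Progenitor markers summed to 260 to 337 CPM in callosum labelled Bmal1-/- and 211 to 271 CPM in wild-type callosum. Astrocyte markers summed to 4970 to 6410 CPM in neurospheres labelled Bmal1-/- and 6270 to 6480 CPM in wild-type neurospheres. The callosum libraries also held neuron markers, 8280 to 9870 CPM summed in those labelled Bmal1-/- and 7410 to 9300 CPM in wild type, and striatal neuron markers, 1010 to 1280 CPM in those labelled Bmal1-/- and 1230 to 3750 CPM in wild type. Arntl, the gene symbol of Bmal1, did not fall with the label: it stood at 32.3 and 40.3 CPM in callosum labelled Bmal1-/- against 39.3, 35.8 and 32.5 CPM in wild-type callosum, and at 40.5, 42.8 and 48.9 CPM in neurospheres labelled Bmal1-/- against 38.2, 49.4 and 45.8 CPM in wild-type neurospheres. What the allele lacks is not stated, so the groups are called by their labels here. Neurosphere replicate 1 labelled Bmal1-/- stood apart, by values given with the neurosphere results.

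Levels are CPM, the count of a gene scaled to the usual fixed library total with TMM factors over the 11 libraries. In bulk RNA, fewer cells of a type and less RNA per cell cannot be told apart. Egfr, the receptor for EGF, TGF-alpha, HB-EGF, amphiregulin and betacellulin, had a high CPM in the neurospheres. It stood at 5.10 and 5.87 CPM in callosum labelled Bmal1-/- and at 4.68, 6.96 and 6.02 CPM in wild-type callosum. In neurospheres labelled Bmal1-/- it stood at 211, 622 and 653 CPM, and in wild-type neurospheres at 434, 573 and 548 CPM. Every neurosphere library lay far above every callosum library, and the lowest neurosphere value was replicate 1 labelled Bmal1-/-. By mean CPM, 165 genes lay above Egfr in neurospheres labelled Bmal1-/- and 174 in wild-type neurospheres, against 10274 in callosum labelled Bmal1-/- and 10260 in wild-type callosum. These ranks take no account of length, and the Egfr transcript is long (10208 bases), so they are no order of abundance among genes.

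Erbb2, the receptor without a ligand, followed the same order with a smaller gap. It stood at 7.20 and 8.35 CPM in callosum labelled Bmal1-/-, 7.36, 10.8 and 9.02 CPM in wild-type callosum, 18.6, 33.6 and 25.5 CPM in neurospheres labelled Bmal1-/- and 22.3, 23.8 and 21.6 CPM in wild-type neurospheres. The sources did not overlap. An exon of Erbb2 overlaps Mien1, and ambiguous reads, which hit several genes, were left out of these unstranded counts. Erbb3, a neuregulin receptor, was the reverse: it stood at 25.1 and 41.1 CPM in callosum labelled Bmal1-/- and 28, 45.5 and 35.6 CPM in wild-type callosum, against 0.531, 3.58 and 1.96 CPM in neurospheres labelled Bmal1-/- and 3.38, 3.29 and 2.02 CPM in wild-type neurospheres. Within wild-type callosum the order of the libraries for Erbb3 (replicates 2, 3, 1) was also the order of their oligodendrocyte marker sums, 33700, 30300 and 22400 CPM, and callosum replicate 2 labelled Bmal1-/- was above replicate 1 in both. The same orders held for the summed markers of oligodendrocyte precursors, microglia, striatal neurons and neural progenitors, so they are not particular to oligodendrocytes. Striatal neuron markers, for example, summed to 3750, 2080 and 1230 CPM in wild-type callosum replicates 2, 3 and 1. In wild type the sums for neurons, interneurons, astrocytes and endothelium had other orders. The part of oligodendrocyte or other cell content in the level of Erbb3 was not tested.

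Erbb4, the receptor for both neuregulin and some EGF-like ligands, was the only receptor whose sources overlapped. It stood at 11.2 and 13.3 CPM in callosum labelled Bmal1-/-, 18.4, 14.4 and 14.3 CPM in wild-type callosum, 1.95, 18.1 and 21.5 CPM in neurospheres labelled Bmal1-/- and 6.18, 18.9 and 20.1 CPM in wild-type neurospheres. Replicate 1 of both neurosphere groups was low and the other 4 neurosphere libraries were high.

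Among the ligands, Tgfa and Hbegf took opposite places in the sources. Tgfa, which encodes TGF-alpha, stood at 78.7 and 110 CPM in callosum labelled Bmal1-/- and 71.6, 148 and 106 CPM in wild-type callosum, against 31.2, 35.7 and 31.2 CPM in neurospheres labelled Bmal1-/- and 39.8, 35.4 and 35.9 CPM in wild-type neurospheres. Every callosum library lay above every neurosphere library, and the wild-type callosum libraries differed among themselves in the same order as for Erbb3. Hbegf, which encodes heparin-binding EGF-like growth factor, stood at 8.66 and 7.59 CPM in callosum labelled Bmal1-/- and 8.05, 9.48 and 9.98 CPM in wild-type callosum, against 150, 96.9 and 82.4 CPM in neurospheres labelled Bmal1-/- and 109, 67.1 and 56.0 CPM in wild-type neurospheres. Within each neurosphere group replicate 1 was the highest.

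Nrg1, the neuregulin that binds ERBB3 and ERBB4, was higher in callosum. It stood at 14.3 and 10.4 CPM in callosum labelled Bmal1-/- and 12.1, 14.6 and 15 CPM in wild-type callosum, against 1.20, 2.92 and 3.29 CPM in neurospheres labelled Bmal1-/- and 3.07, 2.84 and 3.10 CPM in wild-type neurospheres. The sources did not overlap. An exon of Nrg1 overlaps Gm26578 and one of Tgfa overlaps Gm43917.

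Egf itself was low in every library. It stood at 0.908 and 0.690 CPM in callosum labelled Bmal1-/- and 0.551, 0.795 and 0.752 CPM in wild-type callosum, against 1.95, 1.86 and 1.51 CPM in neurospheres labelled Bmal1-/- and 1.80, 1.88 and 1.57 CPM in wild-type neurospheres. These levels rest on 8 to 44 reads per library, and 6330410L21Rik and Gm42697 overlap exons of Egf. Btc, for betacellulin, had 4 and 0 reads in callosum labelled Bmal1-/- and 0, 1 and 1 in wild-type callosum, against 33, 51 and 43 reads in neurospheres labelled Bmal1-/- and 53, 43 and 37 in wild-type neurospheres. Areg, for amphiregulin, had 0 and 1 reads in callosum labelled Bmal1-/- and 0 in all 3 wild-type callosum libraries, against 23, 5 and 10 reads in neurospheres labelled Bmal1-/- and 22, 3 and 5 in wild-type neurospheres. As for Hbegf, replicate 1 was the highest of each neurosphere group. A count of 0 in a callosum library allows up to 3 reads, which is 0.199 to 0.210 CPM, and covers counting error only.

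**Figure D1:**
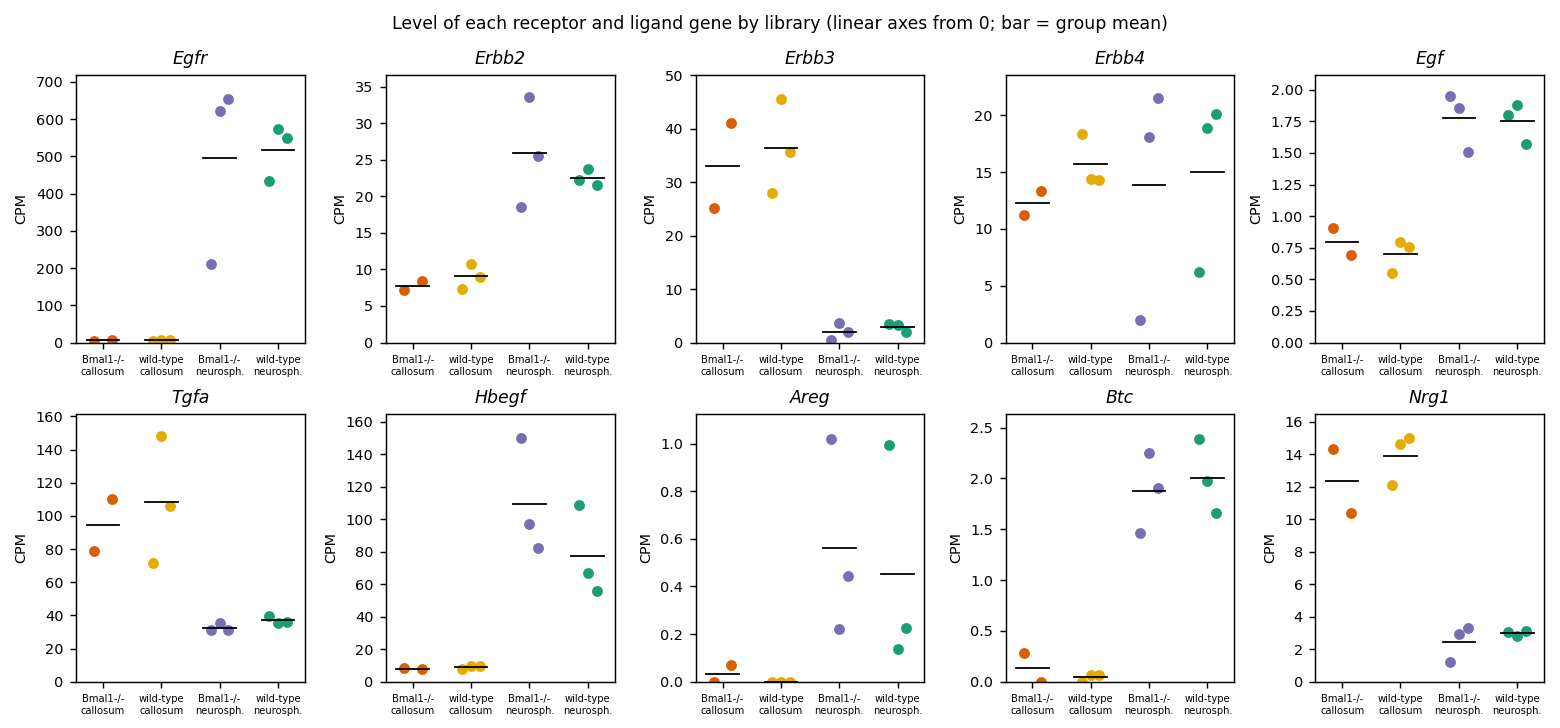
CPM of each of the 10 genes (vertical axes, linear from 0) in every library by group, with points for libraries and bars for group means. Egfr reaches 653 CPM in neurospheres and is at most 6.96 CPM in callosum, while Erbb3, Tgfa and Nrg1 are higher in callosum, and the groups of 1 source overlap for most genes.

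Levels of different genes can be compared only per length. On the scale of CPM per kilobase of the longest annotated transcript, the order in callosum labelled Bmal1-/- was Tgfa (20.8 ± 4.81, SD, n = 2), Erbb3, Hbegf, Nrg1, Erbb2, Erbb4, Egfr (0.537 ± 0.053), Egf, Btc and Areg, and in this order Hbegf and Nrg1 overlapped, as did Btc and Areg. In wild-type callosum the order was the same, led by Tgfa (24.0 ± 8.51 CPM per kilobase, SD, n = 3) and Erbb3 (6.05 ± 1.46), with Egfr 7th at 0.576 ± 0.113. There Erbb2 and Erbb4 overlapped, and so did Btc and Areg, at the bottom of the order. The order depended on the length used. Per kilobase of all annotated exons joined, Erbb2 lay above Nrg1, at 1.49 against 1.195 in callosum labelled Bmal1-/-. In wild-type callosum these values were 1.74 and 1.34. In neurospheres labelled Bmal1-/- Egfr (48.6 ± 24.2 CPM per kilobase, SD, n = 3) and Hbegf (38.0 ± 12.4) led and overlapped each other through replicate 1 alone: Egfr stood at 20.7 and Hbegf at 52 in replicate 1, against 61 and 64 for Egfr and 33.5 and 28.5 for Hbegf in replicates 2 and 3. They were followed by Tgfa (7.22 ± 0.572) and Erbb2 (5.16 ± 1.5). In wild-type neurospheres Egfr (50.8 ± 7.28 CPM per kilobase, SD, n = 3) led without overlap, then Hbegf (26.8 ± 9.71), Tgfa (8.18 ± 0.525) and Erbb2 (4.50 ± 0.226). The other 6 genes of both neurosphere groups lay at 1.25 CPM per kilobase or lower, and each overlapped its neighbour in the order.

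The mix of receptors and of ligands differed between the sources in every library. Of the summed receptor level per length, Egfr made up 5.65% to 7.10% in callosum labelled Bmal1-/- and 5.65% to 6.21% in wild-type callosum, against 83.9% to 89.9% in neurospheres labelled Bmal1-/- and 88.5% to 89.5% in wild-type neurospheres. Erbb3 made up 59.3% to 67.2% in callosum labelled Bmal1-/- and 57.4% to 65.2% in wild-type callosum, against 0.359% to 0.853% in neurospheres labelled Bmal1-/- and 0.560% to 1.17% in wild-type neurospheres. Of the summed ligand level, Tgfa made up 74.7% to 83.6% in callosum labelled Bmal1-/- and 75.5% to 84.2% in wild-type callosum, against 11.3% to 18.5% in neurospheres labelled Bmal1-/- and 17.9% to 27.5% in wild-type neurospheres. Hbegf made up 9.07% to 12.9% in callosum labelled Bmal1-/- and 8.43% to 13.3% in wild-type callosum, against 76.7% to 85.7% in neurospheres labelled Bmal1-/- and 67.3% to 77.3% in wild-type neurospheres. The genotypes overlapped in each source for each of these 4 shares.

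**Figure D2:**
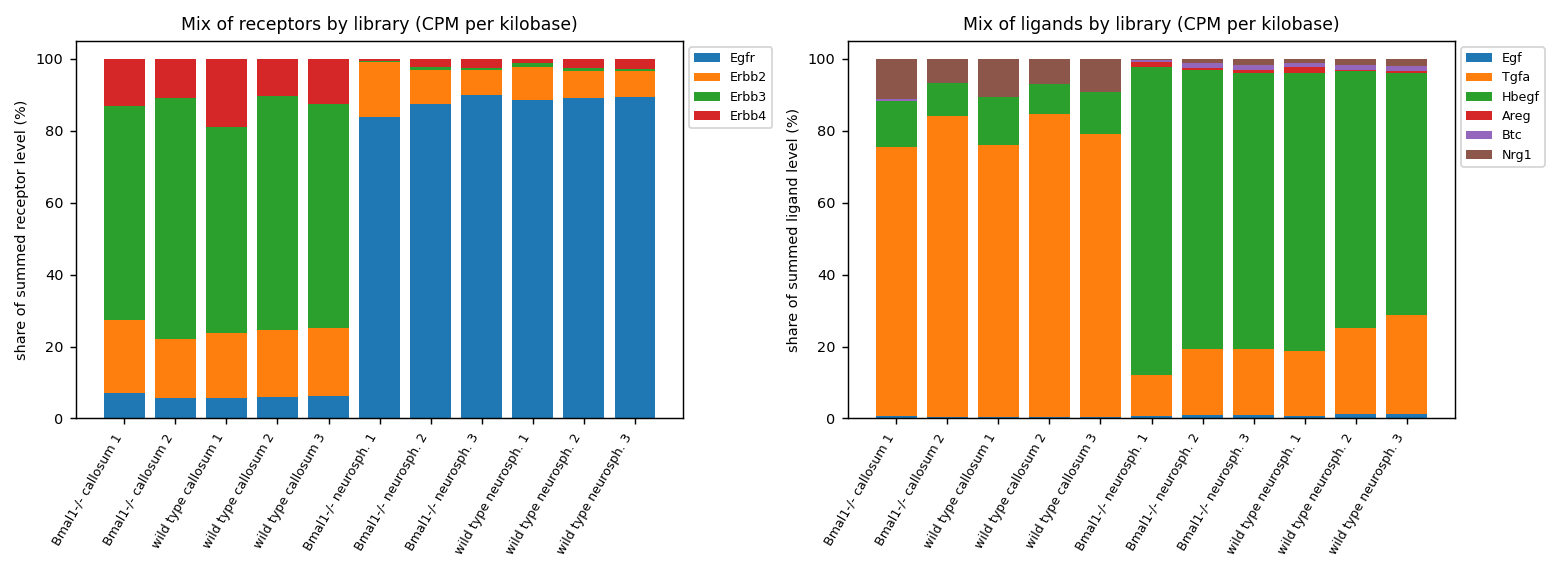
Share (%) of the summed CPM per kilobase taken by each of the 4 receptors (left) and 6 ligands (right), 1 bar per library. Egfr and Hbegf fill most of the neurosphere bars, and Erbb3 and Tgfa most of the callosum bars, in every library.

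The difference between callosum and neurospheres was tested within each genotype with edgeR's quasi-likelihood test, with Benjamini-Hochberg adjustment over all genes tested, and a gene is called here at an adjusted p under 0.05. In wild type, 8 of the 9 members tested were called, 3 higher and 5 lower in callosum, where 85.8% of the 14733 genes tested were called, 42.0% higher and 43.8% lower. With the label Bmal1-/-, 8 of 9 were also called, 3 higher and 5 lower, where 72.6% of 14883 genes were called, 35.1% higher and 37.5% lower. The CPM ranges of the sources did not overlap for 8 of 9 members, 3 higher and 5 lower, in each genotype. Over all genes tested that held for 87.8% in wild type (42.3% higher, 45.4% lower) and for 83.4% with the label (40.3% higher, 43.1% lower). Shares this near the background say nothing particular about the family, so the sizes are given as a description of which genes lay where. The 2 comparisons share no library.

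Egfr was 85.1-fold lower in wild-type callosum than in wild-type neurospheres (log2 fold change -6.41 ± 0.19 SE, edgeR adjusted p = 4.84e-09). With the label Bmal1-/- it was 86.8-fold lower (-6.44 ± 0.63, edgeR adjusted p = 0.000147). Its log2 fold change was lower than that of nearly all genes, at percentile 1.09 of the genes tested in wild type and 1.57 with the label Bmal1-/-. Erbb2 was lower by less, at -1.27 ± 0.16 in wild type (edgeR adjusted p = 4.78e-05) and -1.68 ± 0.31 with the label (0.00263). Erbb3 was 12.9-fold higher in wild-type callosum (log2 fold change 3.69 ± 0.25, edgeR adjusted p = 5.04e-07) and 17-fold higher in callosum labelled Bmal1-/- (4.09 ± 0.66, 0.00136). Without neurosphere replicate 2 labelled Bmal1-/- the value for Erbb3 with the label was 4.74. Erbb4 was not called in either genotype, with 0.11 ± 0.37 in wild type (edgeR adjusted p = 0.788) and -0.12 ± 0.82 with the label (0.902). Without neurosphere replicate 1 labelled Bmal1-/-, the library that stood apart, Erbb4 was called lower in callosum with the label (-0.66, 0.00751), and the other 8 calls held, with Egfr at -6.82, Erbb2 at -1.89, Erbb3 at 3.61 and Hbegf at -3.43.

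Of the ligands, Tgfa was 3.03-fold higher in wild-type callosum (log2 fold change 1.60 ± 0.23, edgeR adjusted p = 0.000105) and 2.98-fold higher with the label Bmal1-/- (1.58 ± 0.22, 0.000753). Nrg1 was 4.77-fold higher in wild-type callosum (2.25 ± 0.17, 1.17e-06) and 5.18-fold higher with the label (2.37 ± 0.43, 0.00244). Hbegf was 8.18-fold lower in wild-type callosum (-3.03 ± 0.25, 2.35e-06) and 13.1-fold lower with the label (-3.71 ± 0.36, 0.000146). Egf was 2.41-fold lower in wild-type callosum (-1.27 ± 0.30, 0.00280). With the label it was 2.14-fold lower (-1.10 ± 0.39, 0.0387), a call that 7 of 14 alternative settings ended, among them leaving out neurosphere replicate 2 (adjusted p = 0.0830), callosum replicate 1 (0.112) or callosum replicate 2 (0.212) labelled Bmal1-/-.

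Btc and Areg rest on few callosum reads. Over the group, Btc had 2 reads in wild-type callosum against 133 in wild-type neurospheres, 44.4-fold lower with a 95% counting interval of 12 to 370. With the label it had 4 against 127 reads, 13.5-fold lower (5.15 to 50.3). The fitted log2 fold changes of Btc were -5.23 ± 0.55 in wild type (edgeR adjusted p = 1.26e-05) and -3.65 ± 0.82 with the label (0.00633). All 4 callosum reads with the label came from replicate 1: the fitted value was -8.26 without that library and -2.68 without replicate 2. Areg passed no filter on low counts between the sources. It had 0 reads in wild-type callosum against 30 in wild-type neurospheres, 22 of them in replicate 1. With a floor of 3 reads over the callosum group it was 6.67-fold lower, and the 95% counting interval began at 5.1. With the label it had 1 against 38 reads, 16.2-fold lower (2.73 to 655).

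Across genes, the difference between the sources moved with base composition. Spearman's rho with GC content was 0.624 in wild type and 0.621 with the label Bmal1-/-, taken over 10209 genes, and genes do not replicate each other. Genes under 45% GC had a median log2 fold change of -2.22 in both genotypes, and genes at 55% GC or more had medians of 1.44 in wild type and 1.39 with the label. Reads outside annotated exons, which can lie in introns or between genes, took 8.55% to 9.93% of reads in callosum and 14.5% to 16.6% in neurospheres. These ranges did not overlap, and source and any change of library preparation between the sources cannot be told apart. The transcripts of the members hold 37.7% (Btc), 40.6% (Erbb4), 42.7% (Nrg1), 44.4% (Egfr) and up to 57.3% (Erbb2) GC. With offsets for transcript length and GC content added to the fit, the median of all genes moved to -0.19 in wild type and -0.20 with the label, against -0.06 and -0.08 without them.

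With those offsets the log2 fold changes in wild type were -5.33 for Egfr, -3.05 for Erbb2, 3.21 for Erbb3, -1.36 for Egf, 1.20 for Tgfa, -3.47 for Hbegf, -2.41 for Btc and 3.98 for Nrg1, and all 8 were still called by edgeR. With the label Bmal1-/- they were -5.48, -3.64, 3.48, -1.30, 1.08, -4.05, -0.72 and 4.06 for the same genes, and Btc was no longer called (edgeR adjusted p = 0.491). Erbb4 was called higher in callosum under the offsets, at 2.11 in wild type (edgeR adjusted p = 0.000575) and 1.84 with the label (0.0206). So the direction for Egfr, Erbb2, Erbb3, Egf, Tgfa, Hbegf and Nrg1 was the same in both settings and the size was not, and no direction can be given for Erbb4.

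**Figure D3:**
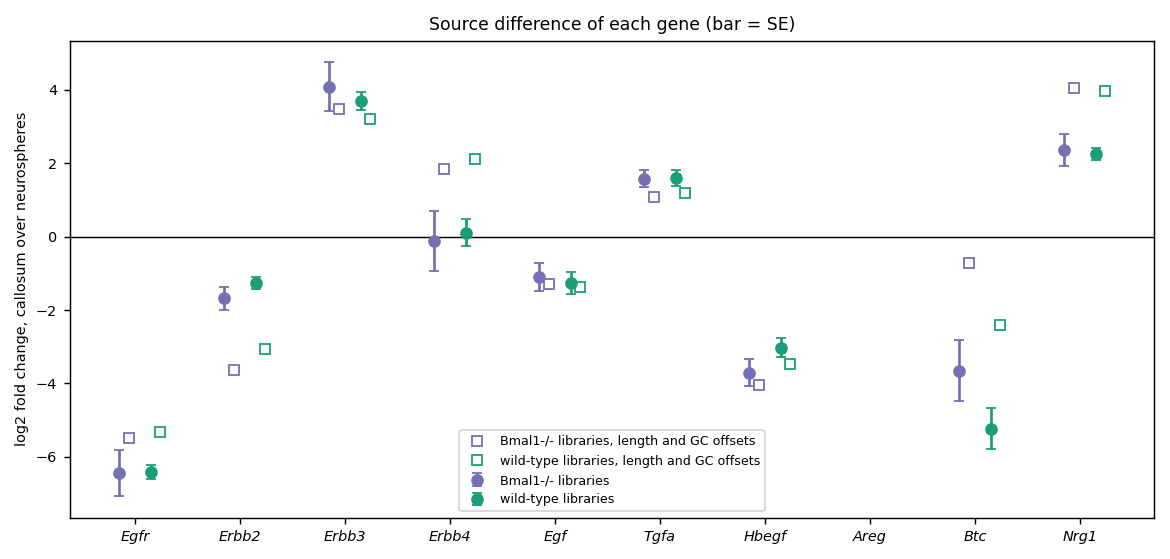
Log2 fold change of callosum over neurospheres for each gene (vertical axis) in libraries labelled Bmal1-/- and in wild type, as edgeR estimates with SE bars (filled) and with length and GC offsets (open, no bars). Egfr lies lowest in both genotypes, at -6.44 and -6.41, Erbb4 lies at -0.12 and 0.11 without the offsets and at 1.84 and 2.11 with them, and Areg was not tested.

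Between genotypes within a source, no member was called by edgeR, DESeq2 or limma-voom, and none reached an unadjusted p under 0.05 in edgeR, as 1969 genes did in the callosum and 422 in neurospheres. In the callosum 8 members were tested, and 0.909% of the 14198 genes tested were called, 0.521% higher and 0.387% lower. In neurospheres 9 members were tested, and 0.00716% of the 13968 genes tested were called. Areg did not pass the filter on low counts in either source, and Btc did not in the callosum. A p above the threshold does not show that the levels were the same.

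In the callosum, Egfr was at -0.09 ± 0.22 (log2 fold change ± SE, edgeR adjusted p = 0.885), Erbb2 at -0.21 ± 0.20 (0.676) and Erbb3 at -0.12 ± 0.26 (0.855). Erbb4 was the only member whose callosum groups did not overlap, with both libraries labelled Bmal1-/- below all 3 wild-type libraries, at -0.35 ± 0.17 (edgeR adjusted p = 0.398). Of all genes tested there, 32.4% had groups that did not overlap, 18.7% in this direction and 13.7% in the other. The ligands lay at 0.20 ± 0.43 for Egf (edgeR adjusted p = 0.862), -0.20 ± 0.31 for Tgfa (0.812), -0.16 ± 0.18 for Hbegf (0.714) and -0.16 ± 0.18 for Nrg1 (0.733). Leaving out 1 library at a time moved Egf between 0.000247 and 0.393 and Hbegf between -0.252 and -0.0609. Of the 8, 7 had a negative log2 fold change, with a median of -0.16 against -0.01 for all genes tested. The wild-type libraries with the most striatal markers, replicates 2 and 3 at 3750 and 2080 CPM summed, were also the highest callosum libraries for Egfr, Erbb2, Hbegf and Nrg1, and the part of striatal tissue in these values was not tested beyond a covariate. With the striatal marker level as a covariate the signs of Egfr, Erbb2, Erbb3 and Tgfa turned, without a call.

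In neurospheres, Hbegf had the largest positive difference, 0.51 ± 0.32 on the log2 scale (edgeR adjusted p = 0.798), with overlapping groups. It was 0.20 without replicate 1 labelled Bmal1-/- and 0.85 without wild-type replicate 1, and called in neither. Erbb3 was at -0.52 ± 0.58 (0.798), Nrg1 at -0.28 ± 0.38 (0.820), Erbb2 at 0.20 ± 0.23 (0.802) and Tgfa at -0.18 ± 0.15 (0.798). Egfr, at -0.07 ± 0.39, Erbb4, at -0.12 ± 0.75, Egf, at 0.02 ± 0.27, and Btc, at -0.10 ± 0.30, lay nearer 0 (edgeR adjusted p = 0.920 to 0.982). Without replicate 1 labelled Bmal1-/-, Erbb3 was at -0.07, Nrg1 at 0.04 and Erbb2 at 0.38, and without its replicate 2 Erbb3 was at -1.22. Areg had 38 reads over the libraries labelled Bmal1-/- and 30 over the wild-type libraries. No member had groups that did not overlap, where 11.9% of the genes tested did, 6.37% higher and 5.52% lower. When the effect of the label in the callosum was set against that in neurospheres, no member was called (edgeR adjusted p = 0.999 or more, unadjusted p above 0.05 for all 10), nor by DESeq2 or limma-voom, and 0.0131% of 15322 genes were.

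**Figure D4:**
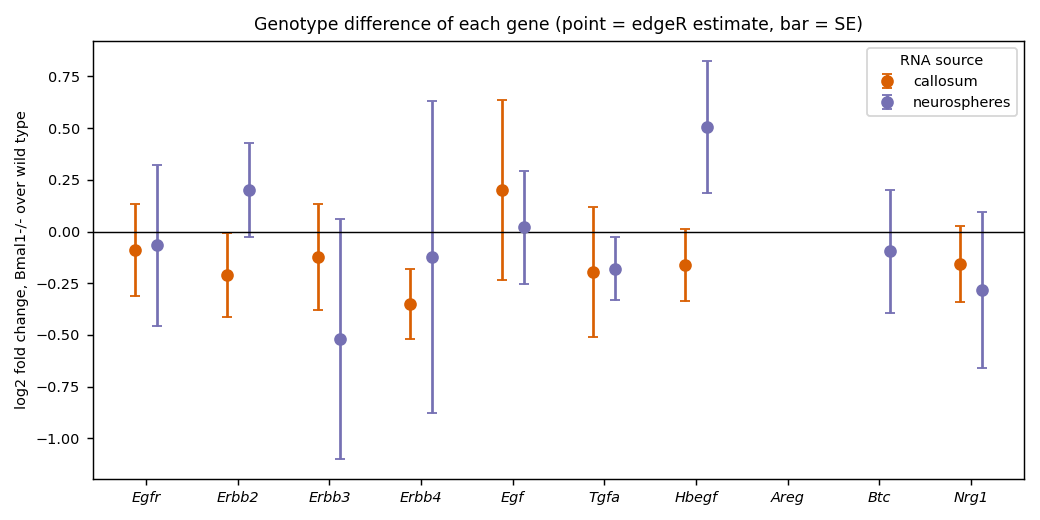
Log2 fold change of libraries labelled Bmal1-/- over wild type for each gene (vertical axis), in callosum and in neurospheres, as edgeR estimates with SE bars. All values lie between -0.52 and 0.51, none was called, and Areg in both sources and Btc in callosum were not tested.

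The spread of several members among neurosphere libraries went with transcript length. In replicate 1 labelled Bmal1-/-, 22.6% of reads were unmapped, and the deviation of a gene from the mean of the other 5 neurosphere libraries fell with transcript length (Spearman's rho of -0.747, taken over 10209 genes as a description). Its median log2 deviation was 0.70 for transcripts under 2000 bases and -0.81 for transcripts of 5000 bases or longer. The longest members were low there: Erbb4 (12037 bases) by -2.93, Egfr (10208 bases) by -1.41, Erbb3 (6016 bases) by -2.17 and Nrg1 (5415 bases) by -1.27 on the log2 scale. The shortest were high: Areg (1215 bases) by 1.36 and Hbegf (2890 bases) by 0.91. Wild-type replicate 1 deviated in the same direction for Erbb4 (-0.998), Areg (1.32) and Hbegf (0.36), and by little for Egfr (-0.16). It deviated in the opposite direction for Erbb3 (0.776) and Nrg1 (0.27). Its rho with length was 0.393, within the 0.263 to 0.517 of all neurosphere libraries other than replicate 1 labelled Bmal1-/-. The mean each was set against included that replicate, so these rho values cannot tell whether those libraries have a length trend of their own. The part of transcript length in these values was not tested gene by gene.

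Leaving out replicate 1 labelled Bmal1-/- alone gave no call between genotypes among the members. Left out together with wild-type replicate 1, an alternative added after the values had been seen, it left 4 neurosphere libraries in which Hbegf was called higher with the label Bmal1-/- (log2 fold change 0.54, edgeR adjusted p = 0.0339), with 96.9 and 82.4 CPM in neurospheres labelled Bmal1-/- against 67.1 and 56.0 CPM in wild-type neurospheres. In that setting 255 genes were called over all, and Egfr (0.18, edgeR adjusted p = 0.321), Erbb3 (0.06, 0.959) and Erbb4 (0.02, 0.972) were not.

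**Figure D5:**
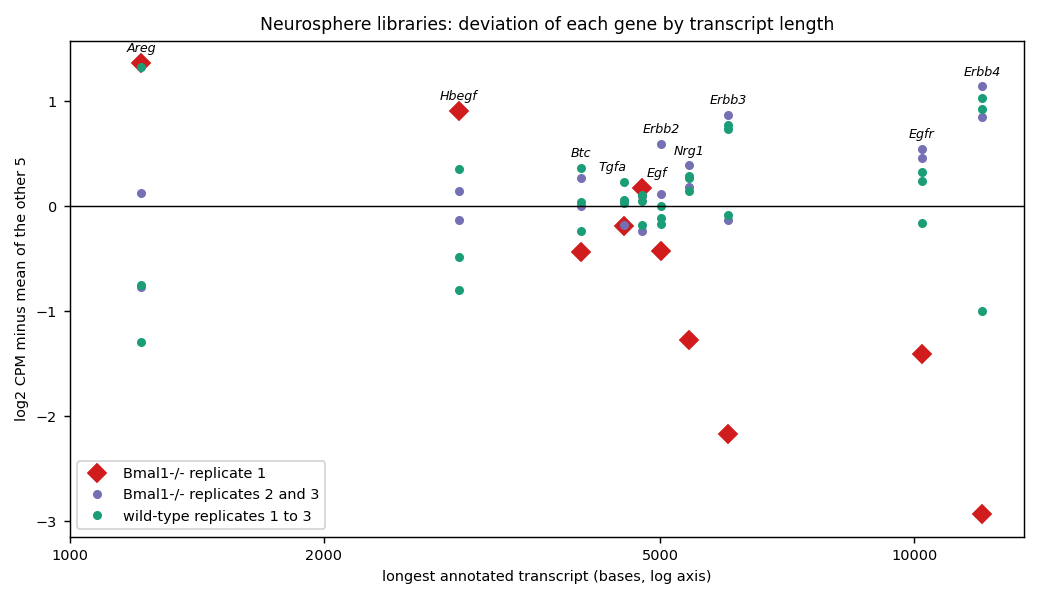
Deviation of log2 CPM of each gene in a neurosphere library from the mean of the other 5 (vertical axis) against the length of its longest annotated transcript in bases (horizontal log axis). Replicate 1 labelled Bmal1-/- (diamonds) is high for Areg and Hbegf and low for Nrg1, Erbb3, Egfr and Erbb4, and wild-type replicate 1 is low for Erbb4.

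The genes that promote or inhibit ligand release, restrain receptors and relay the signal were described from lists of 5 roles. In neurospheres no gene of these lists was called between genotypes by edgeR, and 1 release gene had an unadjusted p under 0.05. In the callosum 3 were, where 0.909% of all genes tested were called. Lrig1, which encodes a membrane protein that restrains EGFR-family receptors, stood at 83.7 and 59.9 CPM in callosum labelled Bmal1-/- against 38.8, 38.0 and 37.1 CPM in wild-type callosum, a log2 fold change of 0.93 ± 0.15 (edgeR adjusted p = 0.0225), as 1 of 12 restraint genes tested. Stat3, a transcription factor that acts after many cytokine and growth factor receptors, stood at 114 and 117 CPM against 77.5, 78.8 and 73.3 CPM (0.61 ± 0.10, 0.0225), as 1 of 20 relay genes. Timp3, an inhibitor of ADAM17 and other metalloproteases, stood at 49.1 and 53.9 CPM in callosum labelled Bmal1-/- against 84.3, 93.3 and 74.5 CPM in wild-type callosum (-0.69 ± 0.13, 0.0431), as 1 of 10 release genes. The groups did not overlap for these 3 genes.

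The 3 calls rest on 5 libraries and ended in many settings, without a change of direction: Lrig1 in 7, Stat3 in 8 and Timp3 in 9 of 15 alternatives. Stat3 was not called when any library was left out (edgeR adjusted p = 0.0523 to 0.207), nor was Timp3 (0.0638 to 0.247), and Lrig1 was called only without callosum replicate 2 labelled Bmal1-/- (0.00508), its other values being 0.0523 to 0.176. With the replicate number as a block Stat3 had an adjusted p of 0.0627. With the striatal covariate none of the 3 was called (edgeR adjusted p = 0.148 for Lrig1, 0.0732 for Stat3 and 0.162 for Timp3). The summed astrocyte markers were also higher: all 9 were detected in every library and came to 4650 and 5010 CPM in callosum labelled Bmal1-/- against 3240, 3360 and 3120 CPM in wild-type callosum. Gfap made most of that gap, at 1860 and 1950 CPM in callosum labelled Bmal1-/- against 356, 489 and 419 CPM in wild-type callosum. Of the 9, Gfap was called higher and Aldh1l1 lower, and the median log2 fold change was 0.11. Their part in the result was not tested. None of the 3 further ligands or the 10 ERK target genes tested in the callosum was called by edgeR.

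Between the wild-type sources these lists held both directions, where 42.0% of all genes tested were called higher and 43.8% lower in callosum. Of 3 further ligands tested, 2 were called higher in callosum, led by Nrg3, which binds ERBB4, at 46.5, 32.5 and 38.2 CPM in wild-type callosum against 0.225, 0.0915 and 0.180 CPM in wild-type neurospheres (log2 fold change 7.87 ± 0.28, edgeR adjusted p = 9.23e-09; 7.80 with offsets). The other, Nrg2, was at 2.16 and turned with offsets, where it was called lower (-0.65, edgeR adjusted p = 0.00519). Of 10 release genes, 1 was higher and 5 lower in callosum, the inhibitor Timp3 among the 5, so the counts give no direction of release. With offsets the counts were 1 and 6, and Timp3 was no longer among them. Adam17, the sheddase of TGF-alpha and HB-EGF, was at -3.32 ± 0.17 (6.91e-08; -2.24 with offsets), Adam10, the sheddase of EGF and betacellulin, at -3.17 ± 0.15 (4.73e-08; -1.30 with offsets), and Bace1, a protease that cleaves neuregulin 1, at 0.94 ± 0.09 (8.11e-06; 0.75 with offsets). Of 12 restraint genes, 3 were higher and 8 lower. Lrig1 had the smallest p, at 38.8, 38.0 and 37.1 CPM in wild-type callosum against 641, 600 and 595 CPM in wild-type neurospheres (-3.96 ± 0.11, 3.40e-09; -5.32 with offsets). All of these are edgeR values.

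Of 20 relay genes, 6 were called higher and 14 lower in wild-type callosum by edgeR, among them Hras (log2 fold change 2.28 ± 0.12, edgeR adjusted p = 7.75e-08; 1.02 with offsets) and Stat3 (-2.07 ± 0.10, 4.72e-08; -2.87 with offsets). Hras encodes a RAS GTPase. With offsets the counts were 5 and 12, and Map2k2 (1.54) and Mapk3 (1.20), kinases of the ERK cascade, turned and were called lower (-0.63 and -0.31). Of 10 ERK target genes, 2 were higher and 7 lower. Epha4 was higher in both settings (1.53, and 2.46 with offsets). Phlda1 was higher without offsets (1.15) and turned with them (-0.65), without a call. Spry2 (-1.94 ± 0.10, 9.00e-08; -0.84 with offsets), Spry4 (-3.12 ± 0.18, 1.55e-07; -3.59) and Dusp4 (-2.46 ± 0.14, 1.71e-07; -3.86), feedback inhibitors of the pathway, and Etv4 (-1.64 ± 0.11, 4.11e-07; -3.48), a transcription factor it induces, were lower in callosum in both settings. The medians of the lists were 2.16, -0.53, -1.01, -1.29 and -1.79 for further ligands, release, restraint, relay and ERK targets, against -0.06 for all genes tested. With offsets they were 1.65, -1.39, -0.65, -0.45 and -2.17, against -0.19 for all genes. With the label Bmal1-/- the counts higher and lower in callosum were 2 and 0 of 3, 1 and 2 of 10, 3 and 4 of 12, 5 and 11 of 20, and 1 and 6 of 10 in the same order, where 35.1% of all genes were called higher and 37.5% lower. With offsets they were 2 and 1, 1 and 6, 3 and 4, 5 and 9, and 1 and 7.

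The genes whose libraries varied most like each receptor within the groups were found by the correlation of deviations from the 4 group means over the 11 libraries, among 10231 genes with a mean of at least 10 CPM. For Egfr these were Ttc37 (Pearson's r = 0.997), Eps15 (0.993), which encodes a substrate of the EGF receptor in endocytosis, and Tet1 (0.992). For Erbb4 they were Elfn2 (0.997), Rbm33 (0.995) and Pnpla6 (0.994), for Erbb2 Pacs2 (0.985), Efcab14 (0.968) and Frmd4b (0.962), and for Erbb3 Cgnl1 (0.982), Epc2 (0.972) and Stk4 (0.970). These values are a description: 1065 genes had r of at least 0.9 with Egfr and 1074 with Erbb4, against 66 with Erbb2 and 196 with Erbb3, and all points come from the same libraries, neurosphere replicate 1 labelled Bmal1-/- among them. With its point alone left out of the correlation, the 3 values were 0.993, 0.981 and 0.979 for Egfr and 0.993, 0.990 and 0.986 for Erbb4. They were 0.978, 0.949 and 0.943 for Erbb2, and 0.961, 0.941 and 0.936 for Erbb3. The group mean and the choice of genes still included that library, so these values do not show what would remain without it.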

How the data were processed

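STAR 2.7.1a and the build mm10 are named in the submitters' processing notes. Which annotation was counted is not stated there. The authors deposited raw read counts per gene, and the counts that ignore strand were used, with 4 rows of unassigned reads left out. Depth was 17450270 to 19717848 counts per library. The labels name oligo-dT selection or rRNA depletion without saying which library had which. Replicates differed by a chi-square of 6.85 to 132 per degree of freedom, so each was kept.

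Tests used edgeR 4.0.16 in R 4.3.3 (quasi-likelihood, two-sided, TMM, genes kept by filterByExpr) over the groups compared, and over all 11 libraries for the genotype by source term. DESeq2 1.42.0 and limma 3.58.1 (voom) were alternatives. The SE is the fold change divided by the square root of F. Scripts were tested on simulated data. Positions are RefSeq on GRCm38.p6, lengths and GC content GENCODE M21, matched for 98.5% of symbols. At most 0.167% of a member's 50-base stretches occur in another gene.

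The members and lists were chosen with earlier results of these data known. All 10 members are named; of the pathway lists, genes called, at most 4 per list and direction by smallest p; and per receptor the 3 most alike genes. An item within this rule is not reported here.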

Additional observations from a re-analysis of the deposited data

How the results depend on the processing

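No paired analysis was adopted, since the labels give a number only. The deviations of same-numbered libraries correlated at -0.03 to 0.33 between genotypes in neurospheres and at 0.03 to 0.08 in callosum. Between wild-type sources they correlated at 0.01 to 0.13. Between the sources labelled Bmal1-/-, which share 2 numbers, they correlated at 0.20 to 0.23. Under a block for the replicate number, edgeR called 2 genes in neurospheres (1 without it) and 1 gene for the genotype by source term (2 without it), Erbb4 with the label stood at 0.99 between sources (adjusted p = 0.0359), and the genotype by source values were 0.15 for Egfr, 0.0327 for Erbb4 and 0.0268 for Tgfa.

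The number of all genes called between genotypes depended on the tool. In neurospheres, 1 gene was called in the main setting, against 5 with no filter, 33 by DESeq2, 2 by limma-voom, 4 with length and GC offsets, 19 in the single model and 255 with both replicates 1 left out, where 1 member was called. In the callosum, 129 were called, against 224 with no filter, 322 by DESeq2, 33 in the single model and 75 with the striatal covariate. For the genotype by source term, 2 were called, against 37 by DESeq2 and 12 with offsets. Leaving out 1 library at a time gave 1 to 5 genes in neurospheres, 27 to 192 in the callosum and 1 to 10 for the genotype by source term.

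Signs of uncalled members turned. In neurospheres Egfr was 0.215 and Erbb4 0.0709 with offsets, and with both replicates 1 left out Egfr was 0.183, Erbb3 0.058, Erbb4 0.0158, Egf -0.036, Btc 0.196 and Nrg1 0.0606. In the callosum Egfr was 0.0649 with offsets, and with the striatal covariate Egfr was 0.27, Erbb2 0.14, Erbb3 0.38 and Tgfa 0.49. Between sources with the label Erbb4 was 0.46 by limma-voom and 1.84 with offsets. The genotype by source values by limma-voom were 0.13 for Egfr, 0.176 for Erbb4 and 0.0125 for Tgfa. Leaving out 1 library at a time gave ranges across 0. In neurospheres these were -0.31 to 0.29 for Egfr, -0.0318 to 0.384 for Erbb2, -0.58 to 0.39 for Erbb4, -0.0606 to 0.135 for Egf, -0.248 to 0.0559 for Btc and -0.535 to 0.0427 for Nrg1. In the callosum they were -0.225 to 0.0565 for Egfr, -0.52 to 0.20 for Erbb3, -0.45 to 0.10 for Tgfa and -0.394 to 0.0584 for Nrg1. Between sources Erbb4 ran from -0.28 to 0.36 in wild type and from -0.66 to 0.31 with the label. For the genotype by source term they were -0.39 to 0.21 for Egfr, -0.0552 to 1.07 for Erbb3, -0.74 to 0.22 for Erbb4, -0.0357 to 0.348 for Egf, -0.29 to 0.26 for Tgfa, -0.31 to 3.25 for Areg, -2.91 to 2.56 for Btc and -0.20 to 0.36 for Nrg1. The offsets also turned pathway genes between sources: in wild type Nrg2 -0.65, Ptpn1 -0.75, Map2k2 -0.63, Mapk3 -0.31 and Phlda1 -0.65, and with the label Nrg2 -0.75, Ptpn1 -0.85 and Map2k2 -0.68. The causes were not tested.

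Limits: Areg and Btc rest on few callosum reads, no library has a stated animal, and the callosum with the label has 2 libraries.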
